A study of Mus musculus with 10 samples.

Results

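CD4+ T cells from mice that developed breast tumours spontaneously under a TSLP transgene were compared with CD4+ T cells from control mice, by RNA sequencing. Of the 10 libraries in the series, 5 belong to this comparison, 3 of them TEST and 2 CONTROL. They were chosen by genotype, since the other 5 came from hosts that received implanted tumours and transferred T cells. Each of the 5 libraries came from 1 mouse, so every p-value measures the spread between single animals that also differed in strain, organ and genotype.

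The 3 TEST mice carried K14-TSLP, in which a keratinocyte promoter drives TSLP, together with MMTV-PyMT, in which a viral promoter active in mammary epithelium drives the polyoma middle T oncogene. The TSLPR +/- TEST mouse was C57BL/6. The Rag1 +/- TEST mouse was Balb/c, as was the Rag1 -/- TEST mouse, a host without T and B cells of its own that was given CD4+ T cells when young. All 3 TEST libraries were made from draining and non-draining lymph nodes. The TSLPR -/- CONTROL mouse was C57BL/6 with both transgenes, lacked the TSLP receptor, and gave cells from the spleen. The Rag1 +/- CONTROL mouse was Balb/c, gave lymph node cells, and has no transgene named in its label. Per the labels, all cells were sorted from mice with terminal tumours and then stimulated for 5 h with antibodies to CD3 and CD28, IL-2 and TSLP, whereas the text of the study calls them freshly sorted. The 2 controls are thus different kinds of control, one for the receptor and one for both transgenes. Strain was mixed within each group, and organ was mixed in CONTROL only. Neither age nor sex is given in the labels, and the methods of the study state that its breast cancer experiments used females of matched age. The Rag1 -/- TEST and Rag1 +/- CONTROL libraries nevertheless held Y-linked transcripts, as described below.

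TSLP is a cytokine of epithelial barriers. It signals through a receptor made of the chain encoded by Crlf2 and the IL-7 receptor chain, and activates STAT5 through JAK1 and JAK2. In CD4+ T cells it favours the type 2 helper (Th2) state, in which the factor GATA3 drives the cytokines IL-4, IL-5 and IL-13.

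The libraries differed in composition. Values are in FPKM (fragment counts divided by transcript length and by the number of mapped fragments), rescaled after the 4 ribosomal RNA rows were left out so that each of the 5 libraries has the same sum. Ribosomal RNA took 1.21% of the deposited sum in the TSLPR +/- TEST library and 14.92% to 32.63% in the others. In the same library the clustered histone genes took 0.021% of the remaining sum, against 0.25% to 0.494% in the other 4, and Malat1, a nuclear noncoding RNA, was at 109.6 FPKM against 2797.6 to 3871.2. Depth was estimated from the spacing of the lowest values at 13.0 in this library and 4.0 to 5.5 in the others, in units of 1e6 mapped fragments. Its correlation with each other library over the tested genes was 0.815 to 0.858, and those among the other 4 were 0.874 to 0.917. The TSLPR +/- TEST library therefore stood apart from the rest, and its part in the results below was not tested except where values without it are given.

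**Figure D1:**
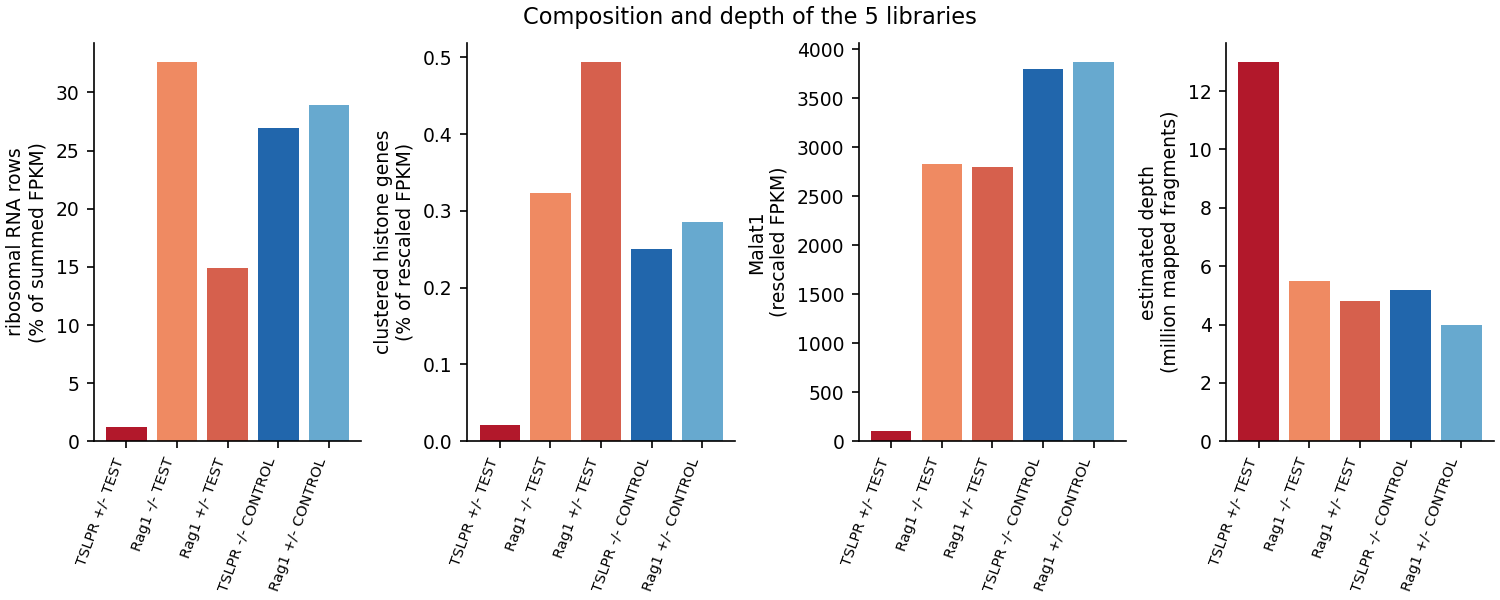
Bars show, for each of the 5 libraries (TEST in red shades, CONTROL in blue), the share of ribosomal RNA rows in the deposited FPKM, the share of clustered histone genes after these rows were left out, Malat1 in rescaled FPKM, and the estimated depth in units of 1e6 mapped fragments. The TSLPR +/- TEST library has 1.21% ribosomal RNA, 0.021% histone RNA and 109.6 FPKM of Malat1, each below the other 4, and a depth of 13.0, above the other 4.

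The first question was how gene levels in the 3 TEST mice compared with those in the 2 CONTROL mice. Il1r2, which encodes a decoy receptor that binds IL-1 without signalling, had the smallest p of all genes and was higher in each TEST library. Levels below are given in the order TSLPR +/-, Rag1 -/- and Rag1 +/- for TEST and TSLPR -/- and Rag1 +/- for CONTROL. Il1r2 (gene ID 16178, GRCm38 chromosome 1, 40084692 to 40125230) was at 38.3, 54.4 and 32.7 FPKM in TEST and at 3.85 and 2.50 in CONTROL. The group means were 41.8 ± 11.3 (SD, n = 3) and 3.17 ± 0.953 (SD, n = 2), and the difference was 3.35 ± 0.40 (SE) on the log2(FPKM + 1) scale, 10.2-fold. This scale understates the change of low genes. Il1r2 did not pass (limma, Benjamini-Hochberg adjusted p = 0.189 over 11042 genes), and its limma adjusted p was 0.0605 to 1 under the alternatives, never past the threshold.

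No gene was called, 0% of 11042 at an adjusted p under 0.05, and the next smallest limma adjusted p was 0.902, so no other gene named below had a smaller one in this comparison. At an unadjusted p under 0.05 there were 510 genes, 4.62% of those tested. With strain as a covariate 0 genes were called and 1002 had an unadjusted p under 0.05, and with all 10 libraries in 4 groups 0 were called and 944 did. An exact permutation test of 3 against 2 has 10 arrangements and cannot give a p below 0.1, so genes whose groups do not overlap are given as counts. All 3 TEST libraries lay above both CONTROL libraries for 1002 genes (9.07%) and below both for 1485 (13.4%). The median difference over all genes was -0.08, and in the FPKM as deposited it was 0.22, with 2063 genes above and 677 below. The balance of higher and lower genes thus depends on the scaling. The lists below are set beside the median of all genes, and their counts of genes apart beside 9.07% above and 13.4% below over all genes.

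The type 2 cytokine genes had a median difference of 2.54 over 9 tested genes, against -0.08 over all genes, the largest of the lists examined. In 8 of the 9, all TEST libraries lay above both CONTROL libraries, against 9.07% of all genes. This count was the same under the 4 other scalings (10.9% to 18.8% of all genes), and no gene was called. The median was 1.77 without the Rag1 -/- TEST library and 2.385 to 2.78 without each other library. In bulk samples such as these, fewer cells of a type and less RNA per cell cannot be told apart. Il4, the cytokine that sustains the Th2 state, was at 23.0, 41.5 and 47.5 FPKM in TEST and at 6.03 and 4.70 in CONTROL (difference 2.54 ± 0.43, SE). Il5, the growth factor of eosinophils, was at 28.5, 24.6 and 7.92 FPKM in TEST and at 1.62 and 1.10 in CONTROL (3.01 ± 0.58). Il13, an effector of mucus production and tissue remodelling, was at 35.5, 328 and 54.8 FPKM in TEST and at 7.81 and 4.76 in CONTROL (3.62 ± 0.81). For each of the 3 genes the lowest TEST library was more than 3-fold above the highest CONTROL library. The Rag1 -/- TEST library had more Il13 than the other TEST libraries together, whereas its Il5 was close to that of the TSLPR +/- TEST library.

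These 3 genes lie in the cytokine cluster of chromosome 11, and their promoters are shown because the genes were high in the same libraries. Each window runs from 250 bases before to 50 bases after the start of the gene (RefSeq, GRCm38.p6, 5′ to 3′ on the strand of the gene). Capitals mark GATAA or GATAG on either strand, the core letters bound by GATA factors. Il4 is at chr11:53618616-53618915 on the minus strand, Il5 at chr11:53720544-53720843 on the plus strand and Il13 at chr11:53634653-53634952 on the minus strand.
Il4: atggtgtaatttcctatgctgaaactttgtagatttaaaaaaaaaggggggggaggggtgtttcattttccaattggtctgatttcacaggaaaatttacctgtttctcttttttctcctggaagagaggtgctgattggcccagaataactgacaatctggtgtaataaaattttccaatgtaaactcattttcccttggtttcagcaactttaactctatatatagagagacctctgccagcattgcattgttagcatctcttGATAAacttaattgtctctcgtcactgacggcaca
Il5: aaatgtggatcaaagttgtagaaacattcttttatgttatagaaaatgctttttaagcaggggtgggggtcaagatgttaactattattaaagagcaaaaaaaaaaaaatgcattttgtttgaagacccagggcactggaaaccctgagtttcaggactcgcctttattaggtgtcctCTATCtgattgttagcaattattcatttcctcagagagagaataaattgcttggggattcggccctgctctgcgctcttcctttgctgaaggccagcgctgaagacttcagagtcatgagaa
Il13: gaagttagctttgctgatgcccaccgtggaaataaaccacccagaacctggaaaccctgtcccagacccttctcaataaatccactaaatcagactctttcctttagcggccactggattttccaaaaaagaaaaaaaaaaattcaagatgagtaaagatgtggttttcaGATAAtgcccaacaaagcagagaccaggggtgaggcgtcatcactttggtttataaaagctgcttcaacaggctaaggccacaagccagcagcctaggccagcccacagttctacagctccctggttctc
Each window held 1 match, and 42% of 27025 promoters of the same length held at least 1, so such a match is common.

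Il3 and Csf2, farther along chromosome 11, were also higher. Il3, which acts on mast cells and basophils, was at 10.0, 101 and 24.4 FPKM in TEST and at 3.00 and 4.08 in CONTROL (2.76 ± 0.79). Csf2, the gene of the growth factor GM-CSF, had levels of 3.02, 118 and 6.19 FPKM and at 0.48 and 0.67 (3.26 ± 1.21). In both genes the Rag1 -/- TEST library was far above the other TEST libraries, and these were still above both CONTROL libraries. Il9, a mast cell growth factor, was at 0.84, 19.95 and 1.26 FPKM in TEST, and both CONTROL libraries listed it at 0. Areg, a ligand of the EGF receptor, was at 13.5, 16.1 and 2.65 FPKM and at 2.50 and 1.14 (1.82 ± 0.70), so that its lowest TEST library hardly exceeded the higher CONTROL library. Il31, a cytokine of itch, was at 0.68, 5.38 and 5.88 FPKM against 0.63 and 0, and its TSLPR +/- TEST value was close to CONTROL. Il10 was the exception, at 15.1, 6.54 and 15.7 FPKM in TEST and 16.6 and 6.50 in CONTROL, with overlapping groups. Il24, the remaining listed gene, did not pass the filter on low values (1 FPKM in 2 libraries) and reached 1.21 FPKM at most.

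**Figure D2:**
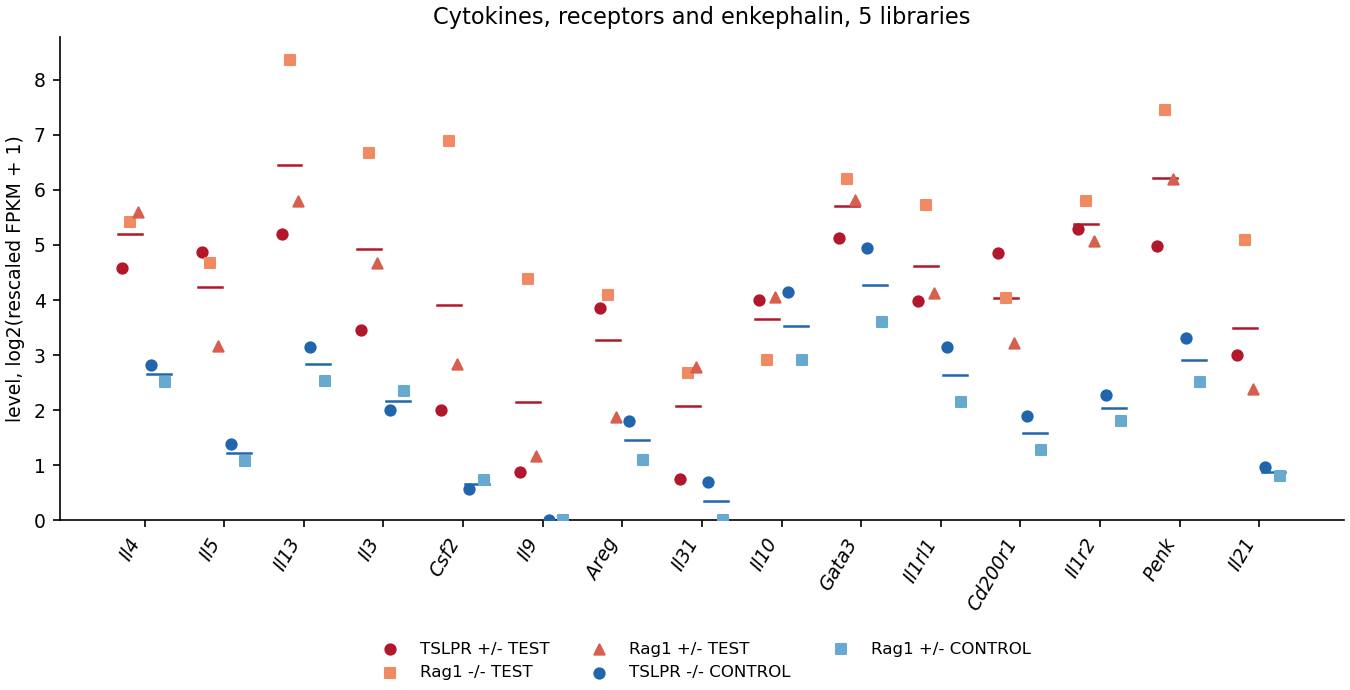
Points show the level of each gene in each of the 5 libraries as log2(rescaled FPKM + 1), with short lines at the mean of the 3 TEST (red) and 2 CONTROL (blue) libraries. Il4, Il5, Il13, Il3, Csf2, Il1r2, Penk, Cd200r1 and Il21 have all 3 TEST libraries above both CONTROL libraries, while those of Il10 overlap.

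Regulators and receptors of Th2 cells differed less. In 4 of 11 tested genes the TEST libraries lay above both CONTROL libraries, against 9.07% of all genes. None lay below, and the median was 0.88. The median was 0.07 in the TSLPR pair, and ran from 0.57 without the Rag1 +/- CONTROL library to 1.77 without the TSLPR -/- CONTROL library. Without the Rag1 -/- TEST library 5 genes lay apart above and 2 below, against 1260 and 3181 of 10660 genes. Gata3 was at 33.7, 72.2 and 55.2 FPKM in TEST and at 29.8 and 11.1 in CONTROL (1.44 ± 0.50), so the TSLPR +/- TEST mouse and its TSLPR -/- CONTROL differed by 0.17 on the log2 scale, whereas the Rag1 +/- pair differed by 2.21. Il1rl1, the receptor of the alarmin IL-33, was at 14.8, 52.1 and 16.6 FPKM in TEST and at 7.86 and 3.41 in CONTROL (1.97 ± 0.60). Nfil3, a leucine zipper factor found in Th2 cells, was at 27.8, 27.9 and 31.4 FPKM and at 15.3 and 5.32 (1.56 ± 0.46). Cd200r1, an inhibitory receptor for CD200 that Th2 cells carry, was at 27.9, 15.5 and 8.37 FPKM and at 2.73 and 1.42 (2.45 ± 0.55). Of these 4 genes Gata3 had the smallest gap between the groups and Cd200r1 the largest fold. Ccr4, a chemokine receptor of Th2 and skin-homing cells, was at 20.7, 188 and 36.3 FPKM in TEST and at 38.4 and 36.8 in CONTROL (0.47 ± 0.77). Its groups overlapped, and the Rag1 -/- TEST library alone was above CONTROL.

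The receptor gene was lowest in the library whose label gives its deletion. Crlf2 was at 23.9, 8.96 and 5.19 FPKM in TEST, at 0.18 in the TSLPR -/- CONTROL library and at 4.06 in the Rag1 +/- CONTROL library, whose receptor is not named as deleted. Its group difference was 2.24 ± 0.76. The TSLPR pair, in which the CONTROL lacks the receptor, differed by 4.39, and the Rag1 +/- pair by 0.29. The highest level was in the TSLPR +/- TEST library, and the cause was not tested. The median of the 10 genes of the receptor and its signalling parts was 0.10, with 2 apart above CONTROL and 1 below, and without the Rag1 -/- TEST library it was -0.26. Jak2 was at 90.5, 105 and 96.5 FPKM in TEST and at 82.9 and 53.9 in CONTROL (0.53 ± 0.35), and Jak1 at 134, 135 and 113 against 171 and 168 (-0.41 ± 0.34). With the FPKM as deposited no gene of this list lay apart below CONTROL, where 6.17% of all genes did. Il7r, the partner chain, overlapped, at 75.6, 227 and 94.9 FPKM in TEST and 130 and 224 in CONTROL. Il2ra, the high-affinity chain of the IL-2 receptor, ranged from 65.2 to 657 FPKM in TEST, with the Rag1 -/- library on top, and was at 64.1 and 231 in CONTROL (0.40 ± 0.92).

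Feedback genes induced by STAT5 had a median of 0.76 over 12 genes, all with a positive difference, of which 2 lay apart above CONTROL, against 9.07% of all genes. Without the Rag1 -/- TEST library the median was 0.32 with 3 genes apart above and 1 below, against 1260 and 3181 of 10660 genes. Without either CONTROL library it was 0.47. Socs1, an inhibitor of JAK kinases, was at 156, 77.5 and 23.97 FPKM in TEST and at 12.7 and 20.9 in CONTROL (1.96 ± 0.68). Its Rag1 +/- pair differed by only 0.19 on the log2 scale and its TSLPR pair by 3.52. Cish, which encodes the related inhibitor CIS, was at 100.3, 354 and 179 FPKM and at 72.8 and 117 (1.00 ± 0.53), with the TSLPR +/- TEST library between the 2 controls. Osm, an IL-6 family cytokine, was at 6.13, 12.3 and 4.91 FPKM and at 2.46 and 4.04 (0.98 ± 0.51).

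Further genes outside these lists were higher in every strain-matched difference, that is, in the TSLPR pair, in the Rag1 +/- pair and in the Rag1 -/- TEST mouse against the Rag1 +/- CONTROL mouse. The last 2 of these share their control. Penk, which encodes the precursor of the enkephalin peptides, was at 30.5, 174 and 72.4 FPKM in TEST and at 8.95 and 4.70 in CONTROL (3.30 ± 0.65). Penk was the only gene called when the fit was limited to Balb/c, with 2 TEST mice against 1 CONTROL mouse (difference 4.31, limma adjusted p = 0.013), where the lone control is assumed to vary like the TEST mice. Its limma adjusted p was 0.242 to 1 under the other alternatives. Il21, a cytokine of follicular helper and other effector cells, was at 6.98, 32.9 and 4.23 FPKM in TEST and at 0.95 and 0.75 in CONTROL (2.60 ± 0.75). Lama5, a laminin chain of basement membranes, was at 7.08, 11.6 and 15.1 FPKM and at 0.61 and 2.47 (2.32 ± 0.53). Pmf1, a kinetochore protein, was at 11.7, 10.6 and 16.1 FPKM and at 2.03 and 2.08 (2.16 ± 0.43). Serp2, a stress-associated protein of the endoplasmic reticulum, was at 8.89, 4.14 and 3.98 FPKM and at 0.32 and 0. Cxx1a and Fam129b also met the rule, with TEST levels of 4.73 to 14.3 FPKM and CONTROL levels of 0 to 1.18.

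Bcl6, a repressor that directs follicular helper cells and opposes other helper fates, was lower in all 3 TEST libraries. It was at 4.15, 5.96 and 5.81 FPKM in TEST and at 33.5 and 23.1 in CONTROL (5.31 ± 1.01, SD, n = 3, against 28.3 ± 7.29, SD, n = 2). The difference was -2.21 ± 0.41 on the log2 scale, 4.61-fold, and no TEST library came near a CONTROL library. Bcl6 (gene ID 12053) lies on chromosome 16 from 23965050 to 23988866 on the minus strand. Its promoter window, chr16:23988803-23989102, is shown because STAT5 is known to repress Bcl6, with capitals on TTCNNNGAA, the spaced palindrome read by STAT factors.
Bcl6: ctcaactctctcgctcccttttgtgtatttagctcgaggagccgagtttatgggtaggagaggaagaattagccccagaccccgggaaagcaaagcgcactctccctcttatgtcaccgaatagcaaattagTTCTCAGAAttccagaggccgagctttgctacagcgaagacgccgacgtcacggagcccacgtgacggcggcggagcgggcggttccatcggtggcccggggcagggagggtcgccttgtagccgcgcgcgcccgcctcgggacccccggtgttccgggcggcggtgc
There was 1 match in the window, and 8.42% of 27025 promoters held at least 1.

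The rest of the follicular helper list did not move as a block. Over 9 tested genes its median was 0.38, with 1 gene apart above CONTROL (Il21) and 3 below (Bcl6, Tcf7 and Pou2af1). The median had no stable sign, at -0.37 without the Rag1 +/- CONTROL library, -0.05 without the TSLPR +/- TEST library, 0.10 without the Rag1 -/- TEST library, and 0.73 and 0.84 without the TSLPR -/- CONTROL and the Rag1 +/- TEST library. Pou2af1, a coactivator of octamer-binding factors, was at 10.9, 8.27 and 6.77 FPKM in TEST and at 21.2 and 17.0 in CONTROL (-1.07 ± 0.40). Icos, the costimulatory receptor of follicular helper cells, was at 149, 714 and 298 FPKM in TEST and at 155 and 190 in CONTROL, so that only the 2 Balb/c TEST libraries were above both controls. Pdcd1, the gene of PD-1, was at 39.7 FPKM in the TSLPR +/- TEST library and at 6.63 to 8.36 in the other 4.

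Naive and central memory genes lay lower in TEST, and none of them was called. The median was -0.79 over 16 genes, and 15 had a negative difference. Apart below CONTROL lay 8, against 13.4% of all genes, and none lay above. Under the 4 other scalings 5 to 8 lay apart below and none above. The 5 came from the FPKM as deposited, where 6.17% of all genes lay apart below. Lef1, a factor of naive T cells that works with Tcf7, was at 29.4, 23.9 and 107 FPKM in TEST and at 176 and 159 in CONTROL (-1.95 ± 0.59). Tcf7 itself was at 224, 215 and 319 FPKM against 475 and 434 (-0.86 ± 0.38). Bach2, which holds back effector programmes, had levels of 21.2, 15.4 and 33.2 FPKM and at 72.5 and 52.8 (-1.44 ± 0.41). For all 3 factors the Rag1 +/- TEST library was nearest to CONTROL. Foxp1, which keeps naive cells quiescent, was at 24.2, 43.5 and 57.1 FPKM against 98.4 and 95.3 (-1.28 ± 0.42). Among the homing receptors, S1pr1, which lets cells leave lymph nodes, was at 98.4, 36.7 and 97.9 FPKM and at 184 and 169 (-1.31 ± 0.48), and Ccr7, which brings them in, at 141, 74.2 and 161 against 376 and 192 (-1.17 ± 0.47).

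Effector and memory surface genes lay on the other side of CONTROL, again with none called. The median was 1.08 over 14 genes, all with a positive difference. Apart above CONTROL lay 6, against 9.07% of all genes, and none lay below. Under the 4 other scalings 8 to 13 lay apart above. The 13 came from the FPKM as deposited, where 18.8% of all genes lay apart above. Without the Rag1 -/- TEST library the median was 0.64 with 6 apart above and 1 below, against 1260 and 3181 of 10660 genes. S100a6, a calcium-binding protein of antigen-experienced cells, was at 163, 122 and 48.8 FPKM in TEST and at 18.2 and 19.99 in CONTROL (2.32 ± 0.50). Anxa2, an annexin that binds S100a10, was at 119, 40.3 and 26.0 FPKM against 11.8 and 11.6 (2.01 ± 0.58). Lgals3, a galectin, was at 12.6, 169 and 9.88 FPKM against 3.25 and 3.86 (2.69 ± 1.02), and Vim, an intermediate filament protein, at 435, 797 and 299 against 102 and 249 (1.55 ± 0.54). In Anxa2 and S100a6 the TSLPR +/- TEST library was the highest, and in Lgals3 and Vim the Rag1 -/- TEST library. Cd44, the usual marker of antigen experience, overlapped, at 46.4, 228 and 64.3 FPKM in TEST and 66.5 and 32.9 in CONTROL.

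**Figure D3:**
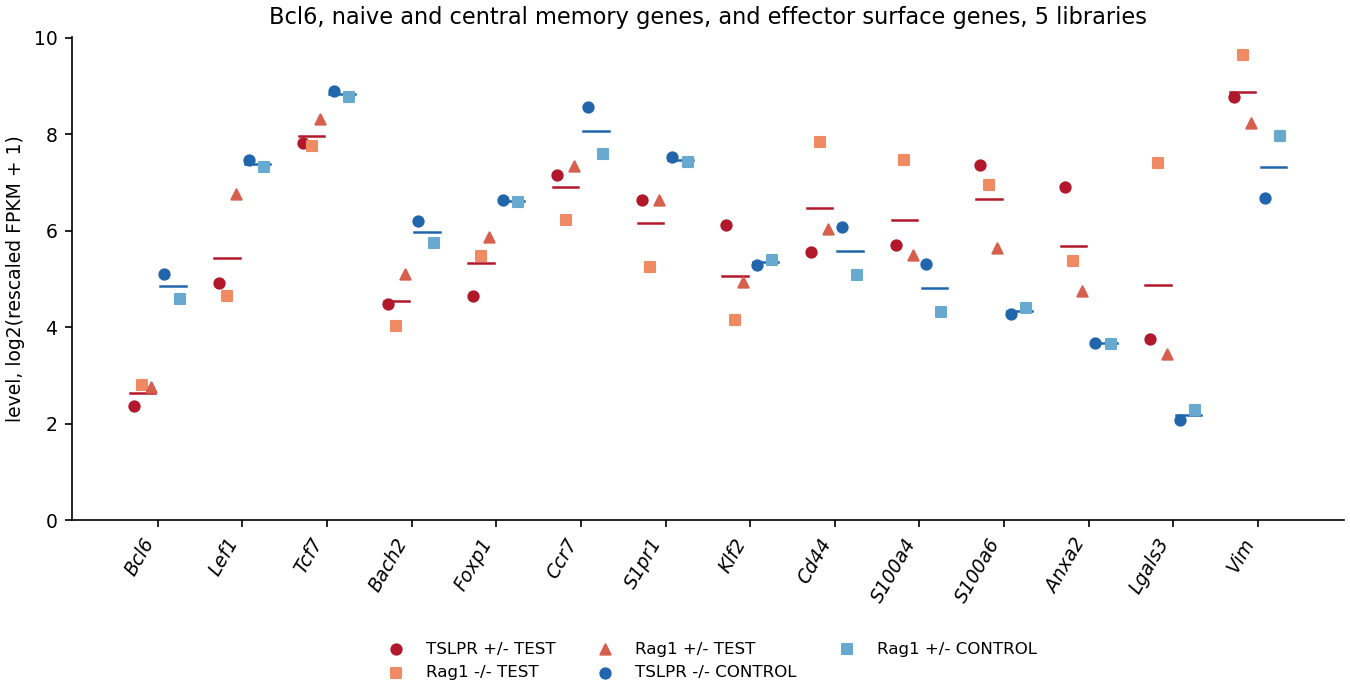
Points show levels in the 5 libraries as log2(rescaled FPKM + 1), with short lines at the mean of the 3 TEST (red) and 2 CONTROL (blue) libraries. Bcl6, Lef1, Tcf7, Bach2, Foxp1, Ccr7 and S1pr1 have all TEST libraries below both CONTROL libraries, S100a4, S100a6, Anxa2, Lgals3 and Vim have them above, and Klf2 and Cd44 overlap.

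Other genes lower in every strain-matched difference included both protein-coding genes and noncoding RNAs. Zbtb20, a zinc finger repressor, was at 0.43, 0.71 and 0.82 FPKM in TEST and at 6.23 and 8.11 in CONTROL (-2.30 ± 0.47). Art2b, an ADP-ribosyltransferase of the T cell surface, was at 1.12, 0 and 0 FPKM against 10.0 and 3.59. Atp1b1, a subunit of the sodium pump, was at 12.8, 2.32 and 14.1 FPKM against 38.7 and 47.0 (-2.30 ± 0.64). In all 3 genes the groups did not overlap. Rpph1, the RNA of ribonuclease P, was at 1.08, 3.68 and 8.85 FPKM and at 51.8 and 36.6 (-3.28 ± 0.63), and Rmrp, the RNA of ribonuclease MRP, at 0.80, 28.01 and 25.2 against 18.9 and 93.3, with overlapping groups. Both are transcripts without a poly(A) tail, and their levels were lowest in the TSLPR +/- TEST library, as were those of Malat1. Over 8 noncoding RNAs of the nucleus or without such a tail, a list drawn up after their values were seen, the median was -1.98 with all libraries and -0.53 without the TSLPR +/- TEST library.

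Among the lists of other helper types, the Rag1 -/- TEST library stood out. Th17 genes had a median of 1.22 over 10 tested genes with 1 apart above CONTROL (Il17f), and the Rag1 -/- TEST mouse differed from the Rag1 +/- CONTROL mouse by a median of 4.56. Il17a, the defining cytokine of Th17 cells, was at 5.94, 206 and 1.27 FPKM in TEST and at 4.27 and 0.58 in CONTROL. Il17f, a related cytokine, was at 5.25, 175 and 0.54 FPKM against 0 and 0.28. Without the Rag1 -/- TEST library the median of the list was 0.33. That library was also the only one made from transferred T cells, and its label does not name the donor.

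Th1 genes had a median of 0.36 over 13 genes, none apart above CONTROL and 1 below (Cxcr3), and without the Rag1 -/- TEST library the median was -0.17. Ifng, the defining cytokine of Th1 cells, was at 14.8, 219 and 4.21 FPKM in TEST and at 15.3 and 25.7 in CONTROL (0.33 ± 1.25). Tbx21, the factor of Th1 cells, was at 9.93, 7.70 and 0.16 FPKM against 1.54 and 2.35 (0.72 ± 0.89). Both overlapped, with the Rag1 +/- TEST library below CONTROL in each. Cytotoxic granule genes had a median of -0.34 over 8 genes, 1 apart above and 2 below. The gene above was Gzmb, a granule protease, at 9.88, 67.3 and 12.3 FPKM in TEST and at 2.97 and 4.06 in CONTROL (2.26 ± 0.74), and those below were Nkg7 and Lamp1. The chemokine list had a median of 0.52, with 2 of 10 apart above CONTROL (Ccl20 and Ccl22), against 9.07% of all genes. Its median was -0.12 without the Rag1 -/- TEST library. Ccl3, Ccl4 and Xcl1 were listed at 0 in the Rag1 +/- TEST library and at 1.15 to 55.0 FPKM in the other 4.

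Regulatory T cell genes had a median of 0.49 over 12 genes. Of these, 4 lay apart above CONTROL (9.07% of all genes) and 1 below (13.4%), but Foxp3 was not among them. The median was 0.14 without the Rag1 -/- TEST library, 0.30 without the TSLPR -/- CONTROL library and 0.85 without the TSLPR +/- TEST library. Foxp3, the factor that defines these cells, was at 68.8, 139 and 82.3 FPKM in TEST and at 92.8 and 204 in CONTROL (-0.57 ± 0.46). Itgae, the CD103 integrin chain, was at 8.43, 66.7 and 17.5 FPKM against 1.40 and 6.58 (2.42 ± 0.81), and Ctla4, an inhibitory receptor, at 143, 136 and 144 against 237 and 220 (-0.69 ± 0.34). With the FPKM as deposited no gene of the list lay apart below, where 6.17% of all genes did. Lag3, another inhibitory receptor, was at 9.82, 5.87 and 11.1 FPKM in TEST and at 2.43 and 1.5 in CONTROL (1.72 ± 0.47).

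Genes of the TNF superfamily had a median of 0.85 over 12 genes, with 6 apart above CONTROL (9.07% of all genes) and 1 below (13.4%). It was 0.52 without the Rag1 -/- TEST library, and in the Rag1 +/- pair the median was 0.21 with 1 of 12 genes 2-fold higher. Tnfsf8, the ligand of CD30, was at 153, 298 and 138 FPKM in TEST and at 71.0 and 74.3 in CONTROL (1.33 ± 0.42). Tnfrsf4, the costimulatory receptor OX40, was at 271, 350.3 and 183 FPKM against 103 and 112 (1.26 ± 0.39), and Tnfrsf9, the receptor 4-1BB, at 233, 408 and 173 against 136 and 98.9 (1.12 ± 0.44). The gene apart below was Cd27, a receptor of less differentiated T cells, at 55.5, 27.1 and 91.5 FPKM against 171 and 112 (-1.40 ± 0.51). General activation genes had a median of -0.08 over 16 genes, 3 apart above and 1 below, and the mice went different ways. In the Rag1 +/- pair 10 of the 16 were 2-fold lower and 1 higher (median -1.37), and in the Rag1 -/- difference 8 were higher and 0 lower (median 0.94). Without the Rag1 -/- TEST library the median was -0.81 with 7 apart below and 3 above. Over all genes 3181 of 10660 then lay apart below and 1260 above. The median was -0.38 without the TSLPR -/- CONTROL library and -0.19 without the TSLPR +/- TEST library. It was 0.15 and 0.35 without the Rag1 +/- CONTROL and the Rag1 +/- TEST library. Cd69, an early activation marker, was at 158, 101 and 68.7 FPKM in TEST and at 120 and 98.6 in CONTROL.

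Proliferation genes had a median of 0.70 over 18 genes, with 6 apart above (9.07% of all genes) and 1 below (13.4%). It was 0.44 without the Rag1 -/- TEST library and 0.47 without the TSLPR -/- CONTROL library. In the Rag1 +/- pair the median was 0.16, against -0.24 over all genes, with 1 of 18 genes 2-fold higher (5.74% of all genes). Ccnb1, a mitotic cyclin, was at 3.64, 4.53 and 5.46 FPKM in TEST and at 0.85 and 1.45 in CONTROL (1.37 ± 0.47). Mki67 overlapped, at 6.35, 23.1 and 18.1 FPKM against 6.61 and 9.27. Glycolysis genes had a median of 0.35 with 2 of 13 apart above (9.07% of all genes). The glycolysis median was -0.12 in the Rag1 +/- pair and 0.55 in the TSLPR pair. Cholesterol synthesis genes had a median of -0.37 with 5 of 13 apart below (13.4% of all genes). In the FPKM as deposited the cholesterol median was -0.07 with 2 apart below and 1 above, against 6.17% and 18.8% of all genes. Without the Rag1 +/- CONTROL library it was -0.13. Heat shock and early stress genes had a median of -0.48 with 4 of 12 apart below, against 13.4% of all genes. Hsph1, a heat shock protein of the HSP110 family, was at 11.9, 47.2 and 15.1 FPKM in TEST and at 141 and 55.7 in CONTROL (-2.06 ± 0.62), with its highest level in the spleen library. Without that library the median of the heat shock list was 0.59. Interferon response genes had a median of -0.12 with 1 of 10 apart below (Isg15), and 18 ribosomal protein genes one of 0.11 with none apart. Without the Rag1 -/- TEST library the ribosomal protein median was 0.67 with 12 of 18 apart above, against 1260 of 10660 genes. Without the TSLPR +/- TEST library it was -0.13. The medians of the activation, interferon, ribosomal protein and cytotoxic lists changed sign under at least 1 other scaling, so no direction is given for them.

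**Figure D4:**
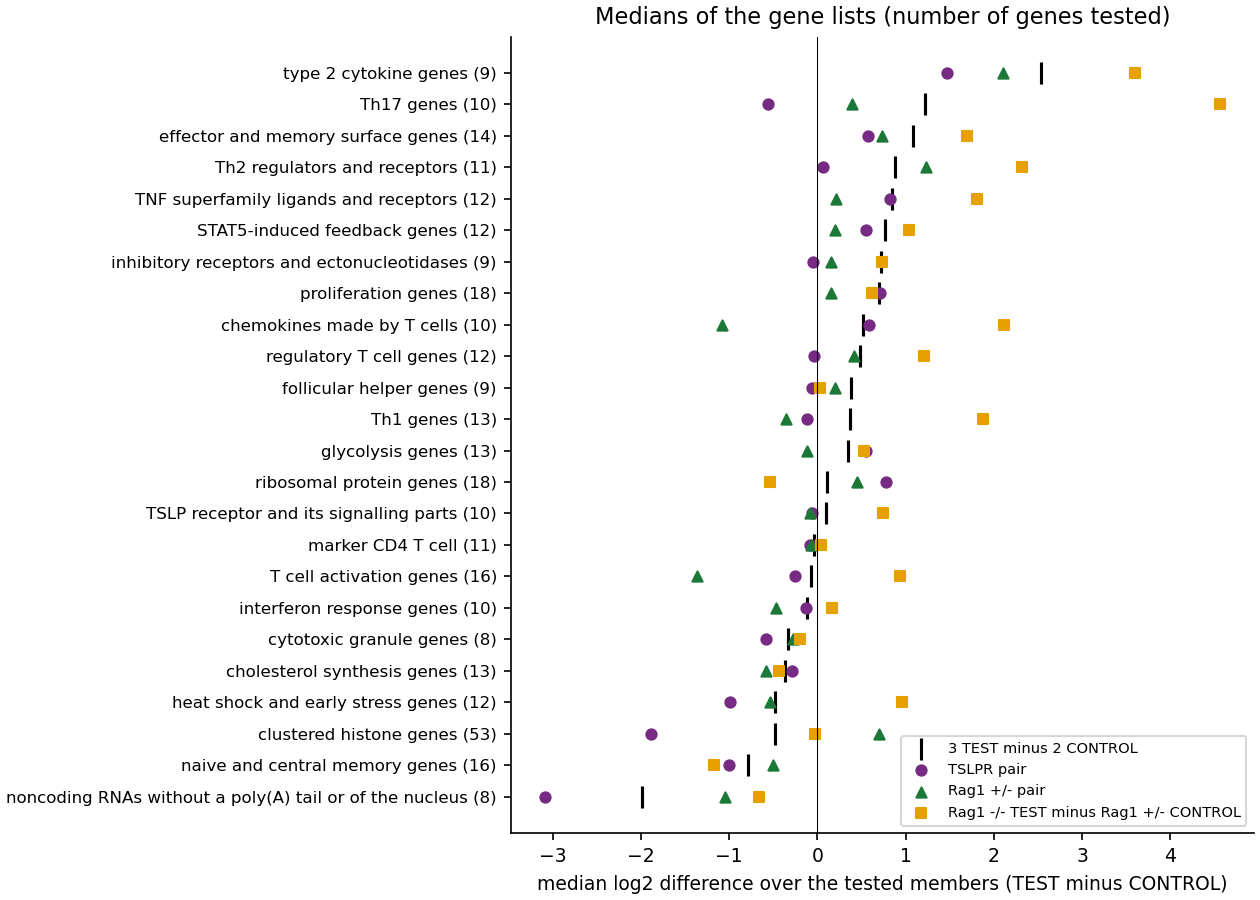
Each row is a gene list with its number of tested genes, and symbols mark the median log2 difference (TEST minus CONTROL) over its members in the group comparison and in the 3 strain-matched differences. The type 2 cytokine list lies at 1.47, 2.11 and 3.604 and the naive list at -0.999, -0.51 and -1.17 in the TSLPR pair, the Rag1 +/- pair and the Rag1 -/- difference, while the Th17 list is spread from -0.56 to 4.56.

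The 2 pairs without a shared library ask the question in different ways. The TSLPR pair is matched for strain and both transgenes and differs in receptor genotype and organ. The Rag1 +/- pair is matched for strain, organ and Rag1 and, going by its labels, differs in both transgenes, as none is named for its CONTROL. Each pair is 1 mouse against 1, so these are values with no test. In the TSLPR pair 1079 genes were 2-fold or more higher (9.77%) and 1907 lower (17.3%), with a median of -0.16 over all genes. In the Rag1 +/- pair 634 were higher (5.74%) and 1206 lower (10.9%), with a median of -0.24. The Rag1 -/- TEST mouse, set against the same Rag1 +/- CONTROL mouse, had 1295 genes higher (11.7%) and 603 lower (5.46%), with a median of 0.09.

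In both pairs 128 genes were 2-fold or more higher (1.16%), which is 11.9% of those of the TSLPR pair and 20.2% of those of the Rag1 +/- pair. Lower in both were 316 genes (2.86%), 16.6% and 26.2% of the respective lists. In opposite directions went 84 genes that were higher in the Rag1 +/- pair and lower in the TSLPR pair, and 106 with the reverse. Of 9 type 2 cytokine genes, 5 were among the 128 (Il4, Il5, Il13, Il3 and Csf2), as were Il1r2, Penk, Cd200r1, Il21, Gzmb, Lag3 and S100a6. Of 16 naive and central memory genes, 2 were 2-fold lower in both pairs.

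The largest differences of the TSLPR pair included Beta-s, a haemoglobin chain of red cells, at 33.5 FPKM in TEST and listed at 0 in the spleen library, Igfbp4, an insulin-like growth factor binding protein of naive T cells, at 207 against 12.5, and Cd99, an adhesion molecule, at 85.8 against 3.72. Lower in that pair were Malat1 and histone genes such as Hist1h4d, at 1.60 against 256 FPKM. Of 53 tested histone genes 39 were 2-fold or more lower in the TSLPR pair, whereas 22 were higher in the Rag1 +/- pair. The median of the histone list was -0.48 with all libraries and 0.47 without the TSLPR +/- TEST library.

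In the Rag1 +/- pair the largest higher genes included Penk, Il13 and Ier3, an early response gene, at 16.2 FPKM in TEST and 0.63 in CONTROL. The lowest was Eif2s3y, a gene of the Y chromosome, at 0 FPKM in the Rag1 +/- TEST library and 16.1 in the Rag1 +/- CONTROL library. It was at 13.5 in the Rag1 -/- TEST library, 0 in the TSLPR +/- TEST library and 0.14 in the TSLPR -/- CONTROL library, and Ddx3y, Kdm5d and Uty were likewise above 1 FPKM only in the Rag1 -/- TEST and Rag1 +/- CONTROL libraries. Xist, the RNA of the inactive X chromosome, was at 27.9 to 149 FPKM in all 5 libraries. The Rag1 +/- pair thus differed in Y-linked transcripts, and the TSLPR pair did not. The Y-linked levels of the Rag1 -/- TEST and Rag1 +/- CONTROL libraries conflict with the use of females stated in the methods of the study. Where these transcripts came from was not tested.

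**Figure D5:**
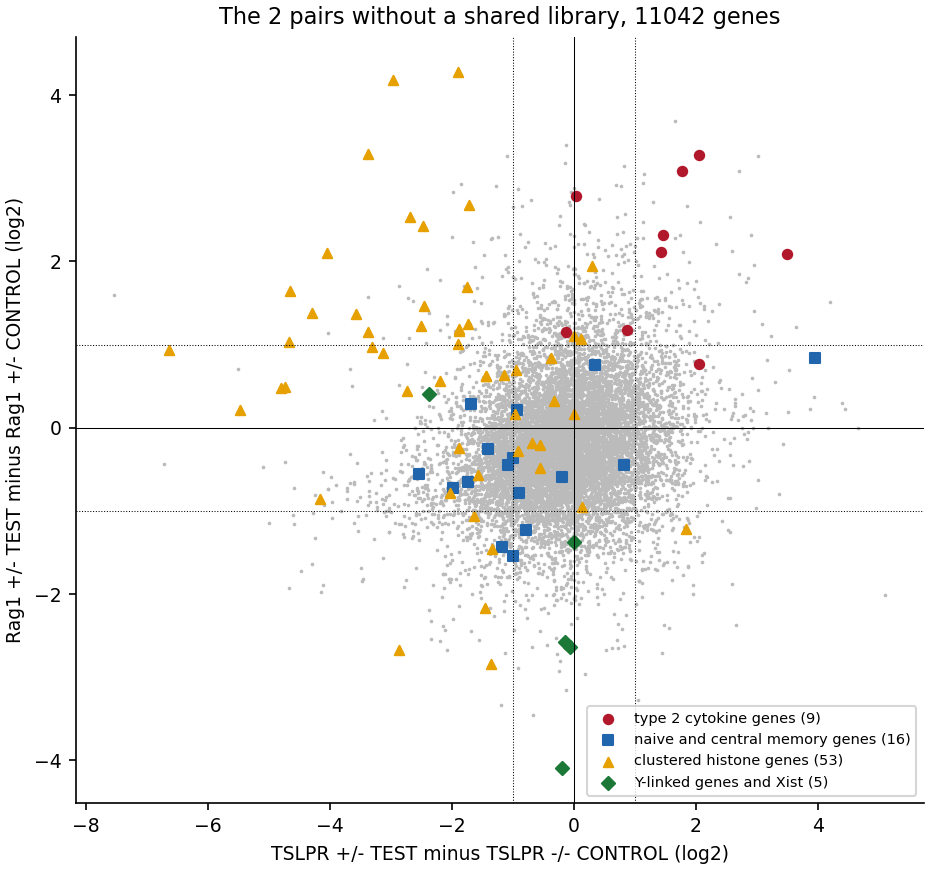
Each of 11042 genes is placed by its log2 difference in the TSLPR pair (horizontal axis) and in the Rag1 +/- pair (vertical axis), with dotted lines at 2-fold. Of the 9 type 2 cytokine genes (red) 5 lie beyond 2-fold in both, the histone genes (yellow) lie mostly to the left, and 4 Y-linked genes and Xist (green) are marked, with Eif2s3y at -4.09 in the Rag1 +/- pair.

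Genes that mark CD4 T cells were present throughout, with 11 of 12 found and a summed level of 1801 to 2598 FPKM in TEST and 2337 and 2644 in CONTROL. Their median difference was -0.04, with 1 apart above and 3 below, and 0.31 in the FPKM as deposited. Markers of other cells differed between libraries. The 11 B cell genes summed to 1.81 to 11.8 FPKM in TEST and 5.17 and 4.57 in CONTROL, and the 12 macrophage and monocyte genes to 2.88 to 15.5 and 5.60 and 5.85. The defining genes Csf1r of macrophages and Col1a1 of fibroblasts were at most 0.80 FPKM in any library. The 8 neutrophil genes summed to 26.5, 22.2 and 3.89 FPKM in TEST and 14.4 and 2.67 in CONTROL, with S100a8 at 10.7, 14.1 and 0 against 2.09 and 0. Igj, the joining chain of plasma cell antibodies, was at 22.5, 0.87 and 0 FPKM in TEST and 2.22 and 0.32 in CONTROL. The part of such cells in the results was not tested. The 6 red cell genes summed to 68.5 FPKM in the TSLPR +/- TEST library and to at most 5.49 elsewhere, and the 9 epithelial genes to 9.05 to 16.7 in TEST and 6.26 and 5.39 in CONTROL. Of these, Epcam, an adhesion molecule of epithelia that some lymphocytes carry, was at 8.55, 5.36 and 7.06 FPKM against 2.74 and 2.44 (1.14 ± 0.45), while Krt14 and Wap were listed at 0 in all 5. In the basophil and mast cell list Kit was at 21.9 FPKM in the Rag1 -/- TEST library and at most 1.15 elsewhere, and Mcpt8 was listed at 0 in all 5.

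Whether the TEST difference was particular to the spontaneous tumour mice was tested against the 3 TEST and 2 CONTROL libraries of the implanted tumour hosts. The implanted TEST hosts carried K14-TSLP, lacked the TSLP receptor and were given Ly5.1 CD4+ T cells. The implanted CONTROL hosts lacked the receptor, had no K14-TSLP named and were given CD4+ T cells without the receptor. These libraries came from 1 to 4 mice each. The implanted groups thus differ in host transgene and in T cell genotype. Of 11207 genes 0 were called for the difference of the 2 effects (0%), 270 had an unadjusted p under 0.05, and the smallest limma adjusted p was 0.0905. All implanted hosts were C57BL/6, whereas 3 of the 5 libraries here were Balb/c, and 2 of the implanted TEST libraries came from the same pooled mice. The fits in this paragraph treated these 2 libraries as independent. With the 2 averaged instead, and no strain term, 0 genes were called. With strain as a covariate, a fit added after seeing the data, 1 gene was called and 425 had an unadjusted p under 0.05. It was Ctse, the protease cathepsin E (difference of the effects -3.95, limma adjusted p = 0.0106), at 285, 298 and 344 FPKM in the implanted TEST libraries and 24.5 and 13.4 in their controls. In the spontaneous setting Ctse was at 16.1 and 18.5 FPKM in the C57BL/6 TEST and CONTROL libraries and at 247 to 342 in the 3 Balb/c libraries. Il1r2 differed by 3.85 ± 0.90 between the settings (limma adjusted p = 1), being at 25.6, 18.2 and 4.41 FPKM in the implanted TEST libraries and at 34.8 and 10.1 in their controls. In the implanted setting the groups therefore overlapped for the gene with the smallest p in the spontaneous setting. Hdc, which makes histamine, was at 51.8 to 68.2 FPKM in the implanted TEST libraries and at 0.29 and 0.88 in their controls, and at 12.6, 1.33 and 2.96 against 2.67 and 1.13 here, a difference of the effects of -4.43 ± 0.87 (limma adjusted p = 0.984). Without the TSLPR +/- TEST library Hdc was the 1 gene called (-5.15, limma adjusted p = 0.0307), and with strain as a covariate it did not pass (-4.17, limma adjusted p = 0.0507). H2-Q6, a class I gene of the MHC whose near-identical relatives can share its reads, was at 0 to 1.27 FPKM in the implanted TEST libraries and at 31.9 to 192 in all other libraries (limma adjusted p = 0.0905). The type 2 cytokines had no such difference that passed, and Il4, Il5 and Il13 differed between the settings by -0.07 ± 1.19, -2.01 ± 1.10 and -0.46 ± 1.30.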

How the data were processed

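CD4+ T cells were sorted, and total RNA was extracted with a column kit and sequenced on an Illumina instrument. The authors aligned the reads to mm10 with Bowtie and deposited 1 table of FPKM values for 17457 genes in 10 libraries. BWA and RSEM appear in the processing notes as well, no version is given for any of these tools, and whether RNA was selected for poly(A) tails and whether counting used strand are not given in the sources used here. Levels of overlapping and near-identical genes are therefore uncertain.

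For this work the 4 ribosomal RNA rows (Rn18s, Rn28s1, Rn45s and Gm20594) were left out and the 5 libraries were rescaled to the same sum. A gene was tested if 2 or more of the 5 libraries reached 1 FPKM, on log2(FPKM + 1), with limma 3.58.1 in R 4.3.3 (trended prior, 3 TEST against 2 CONTROL, no covariate), and p-values were adjusted by the Benjamini-Hochberg method over 11042 genes with a threshold of 0.05. The difference between the spontaneous and implanted settings was an interaction term in a fit of all 10 libraries in 4 groups. No counts were given, so depth was estimated from the step between the lowest FPKM values and no count model was run. The fit of 3 TEST against 2 CONTROL was tested on simulated data, and the other fits were not.

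The genes named were, in each direction, the 12 with the largest minimum of the 3 strain-matched differences at a mean of 5 FPKM or more, the type 2 cytokine and TSLP receptor lists, Tbx21, Ifng, Foxp3, Bcl6 and Gata3, up to 4 genes of each other list by p, the 6 largest of each pair in each direction, and the 4 smallest p of the interaction in each direction. From these some were selected for description, and genes outside the rule, such as Ccr7, S1pr1, Cd44, Ccr4, Icos, Pdcd1, Cd69 and Mki67, were chosen after their values were seen. The members and gene lists were chosen with earlier results of these data known. Gene names matched RefSeq GRCm38.p6 for 99.7% of rows, which gave coordinates and promoters. Alternatives covered the scaling, the pseudocount, the filter, strain as a covariate, Balb/c mice alone, a robust prior and leaving out each library.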

Additional observations from a re-analysis of the deposited data

How the results depend on the processing

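No gene was called in the comparison of TEST with CONTROL under any alternative but 1. With Balb/c mice alone 1 gene was called, Penk (4.31). The counts of genes depended on the scaling. In the FPKM as deposited, 2063 genes had all TEST libraries above CONTROL and 677 below, the TSLPR pair had 3056 genes 2-fold higher and 758 lower, the Rag1 +/- pair 1226 and 486, and both pairs 471 and 67. With median-ratio scaling 725 genes were lower in the Rag1 +/- pair, and 207 were higher and 159 lower in both pairs. With quantile normalization these were 712, 219 and 139, and without ribosomal protein genes in the sum 189 were lower in both pairs. With a pseudocount of 0.1 the Rag1 -/- difference had 912 lower genes and both pairs 272 higher and 622 lower. With a pseudocount of 5 there were 167 higher and 285 lower genes in the Rag1 +/- pair, 459 and 861 in the TSLPR pair, 511 and 202 in the Rag1 -/- difference, and 23 and 58 in both pairs.

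Leaving out 1 library at a time gave 1260 to 2273 genes with TEST above CONTROL and 1937 to 3196 below, where fewer libraries make such separation easier, and 0 to 1 genes called for the difference between settings (Hdc, without the TSLPR +/- TEST library). With strain as a covariate, added after seeing the data, 1 gene was called for that difference (Ctse). Of 55 genes whose group difference was recomputed under 15 to 18 alternatives each, 51 kept their direction and Ccr4, Ifng, Il2ra and Tbx21 did not. Many of these genes were named because their differences agreed in direction. Where the groups of a gene lie apart, leaving out a library cannot reverse it, so the count is not a test of the directions. Leaving out 1 library at a time, the difference ranged from -0.44 to 1.12 for Ccr4, from -1.20 to 1.498 for Ifng and from -0.60 to 1.32 for Il2ra, with the lowest value of each without the Rag1 -/- TEST library. Tbx21 was at -0.074 with Balb/c mice alone, and also with strain as a covariate and the TSLPR +/- TEST library left out, a setting added after seeing the data. The causes were not tested. No pairing by replicate number was possible because these numbers were assigned in accession order and link no TEST mouse to a CONTROL mouse. Strain was used as a covariate instead, with 0 genes called.

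The comparison rests on 3 mice against 2, with strain and genotype mixed in both groups and organ mixed in CONTROL only. Depth was estimated, not given, so values near 1 FPKM rest on few fragments.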
